A study of Bos taurus with 7 samples.

Results

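POU5F1, NANOG, SOX2 and CDX2 are the genes by which the first cell lineages of the mammalian embryo are usually told apart, and they are described here in bovine blastocysts. They were chosen by name, through 4 Ensembl gene IDs; the rule uses no measured value, but it was set with earlier results of these data known. Of the 27607 gene IDs in the count table, 3 were members: ENSBTAG00000021111 (POU5F1), ENSBTAG00000020916 (NANOG) and ENSBTAG00000001819 (CDX2). SOX2 was not analysed here, because no row carried the ID chosen for it. All 3 genes passed the filter on low counts. The pairing of these IDs with symbols came with the choice of genes and was not checked against an annotation.

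The blastocyst holds an outer trophectoderm, which forms the fetal part of the placenta, and an inner cell mass, from which the embryo itself develops. POU5F1 (OCT4) and NANOG are transcription factors of the pluripotent cells of the inner cell mass. CDX2 is a homeobox factor that acts in the trophectoderm. In cattle POU5F1 transcript and protein persist in the trophectoderm of the blastocyst, so POU5F1 marks the inner cell mass less sharply than in the mouse, while NANOG is more restricted to it.

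The 7 RNA sequencing libraries came from blastocyst stage embryos in 3 groups that differed in what was added while the oocytes matured in vitro. The control group had 2 libraries, the etomoxir group 3 and the IO+DHEA group 2. Etomoxir blocks carnitine palmitoyltransferase 1, the entry of long-chain fatty acids into mitochondrial oxidation, and IO+DHEA was applied against glucose metabolism. DHEA commonly abbreviates dehydroepiandrosterone, and IO is left as the labels write it. Doses, embryos per library and the origin of the replicates were looked for in the labels and not given there, so the p-values reflect the spread between these libraries alone, which may be technical. Each library is bulk RNA of whole embryos, in which fewer cells of a lineage and less transcript per cell cannot be told apart. The stage label was checked only in that POU5F1, NANOG and CDX2 had counts in every library.

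Libraries held 84739741 to 122061453 counts. IO+DHEA library 1 had counts for 12990 genes, against 15056 to 15898 in the others, and a TMM scaling factor of 0.840, against 0.982 to 1.09. Levels are on the counts-per-million (CPM) scale with TMM-scaled totals. They are compared between libraries and not between genes, because they are not divided by gene length. Differences were tested by edgeR's quasi-likelihood test over all 15134 genes that passed the filter, with p-values adjusted by Benjamini-Hochberg and a threshold of 0.05.

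POU5F1 was lower in both IO+DHEA libraries than in any other library, and was 2.31-fold lower than in control. Its level was 586 and 454 CPM in the controls, then 417, 507 and 508 CPM in the etomoxir libraries, and 220 and 230 CPM in the IO+DHEA libraries. Control and etomoxir libraries overlapped, and the IO+DHEA libraries overlapped with neither group. Group means were 520.1 ± 93.0 CPM (SD, n = 2) in control, 477 ± 52.1 CPM (SD, n = 3) in etomoxir and 225 ± 7.21 CPM (SD, n = 2) in IO+DHEA.

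POU5F1 fell in IO+DHEA against control. The log2 fold change was -1.21 ± 0.22 (SE), the 95% interval of the 2.31-fold lower level was 1.63 to 3.28-fold, and the edgeR adjusted p was 0.0253. It was lower in 2 of 2 IO+DHEA libraries. POU5F1 was the member called, 1 of 3, where 6.94% of all genes tested were called in this comparison, and a count of 1 among 3 genes is too small to read against that share. The log2 fold change was -1.14 without IO+DHEA library 1, the one with few detected genes, and -1.24 without IO+DHEA library 2. In the latter fit the median of all genes was itself -0.33, and relative to that median POU5F1 was at -0.92, against -1.12 without library 1. The call depended on which libraries entered the fit. The edgeR adjusted p was 0.0595 without etomoxir library 2, 0.0746 without etomoxir library 3, and 0.183 when control and IO+DHEA were fitted alone. The unadjusted edgeR p was 0.0016, 0.00224 and 0.00533 in these fits, against 0.000654 as reported. Over all genes they called 271, 110 and 0, against 1050 as reported, and the adjustment depends on all genes. The log2 fold change was -1.06 without control library 1 and -1.44 without control library 2.

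POU5F1 also differed between the treatments, and was higher in etomoxir than in IO+DHEA in 3 of 3 libraries. The log2 fold change was 1.08 ± 0.20 (SE), or 2.12-fold with a 95% interval of 1.53 to 2.94-fold, and the edgeR adjusted p was 0.0201. In this comparison 11.7% of all genes tested were called. Both comparisons use the same IO+DHEA libraries and are not independent of each other. The edgeR adjusted p rose to 0.0523, 0.0729 and 0.0901 without etomoxir libraries 1, 2 and 3. Etomoxir against control gave no call for POU5F1, with a log2 fold change of -0.12 ± 0.19 (SE), a 95% interval of -0.58 to 0.33 and an edgeR adjusted p of 1, where 0.00661% of all genes tested were called.

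**Figure D1:**
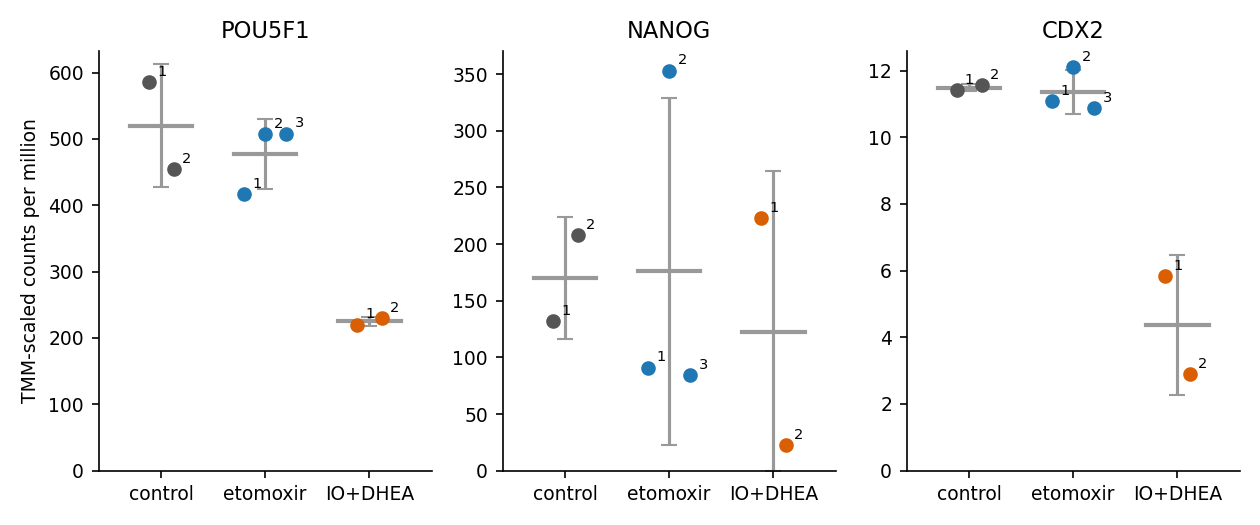
Level of POU5F1, NANOG and CDX2 in TMM-scaled CPM (vertical axes from 0, on a different scale for each gene) in the control, etomoxir and IO+DHEA groups. Points are libraries with their number, grey bars are group means with the SD, cut at 0 where it is larger than the mean. POU5F1 (220 and 230 CPM) and CDX2 (5.85 and 2.88 CPM) in the IO+DHEA libraries lie below all 5 other libraries, and NANOG overlaps between all groups.

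NANOG varied more between libraries of a group than between group means. It was at 132 and 208 CPM in the control libraries, at 90.9, 353 and 84.2 CPM in the etomoxir libraries, and at 223 and 22.3 CPM in the IO+DHEA libraries. The highest value was that of etomoxir library 2 and the lowest that of IO+DHEA library 2, a 15.8-fold range, and every pair of groups overlapped. IO+DHEA library 1 was 3.32 above IO+DHEA library 2 in log2 CPM of NANOG, and etomoxir library 2 held 3.88 and 4.19 times that of etomoxir libraries 1 and 3. In library-total CPM, without TMM factors, the fold between the IO+DHEA libraries was 7.72.

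No comparison called NANOG, and the intervals were wide. Group means were 170 ± 53.7 CPM (SD, n = 2) in control, 176 ± 153 CPM (SD, n = 3) in etomoxir and 123 ± 142 CPM (SD, n = 2) in IO+DHEA. For etomoxir against control the log2 fold change was 0.05 ± 0.94 (SE), with a 95% interval of -2.14 to 2.24 and an edgeR adjusted p of 1. For IO+DHEA against control it was -0.47 ± 1.03 (SE), with an interval of -2.87 to 1.93 and an edgeR adjusted p of 0.830. Leaving out IO+DHEA library 1 gave -2.90 and leaving out IO+DHEA library 2 gave 0.39, so 1 library decided its direction. For etomoxir against IO+DHEA it was 0.52 ± 0.95 (SE), with an interval of -1.70 to 2.74 and an edgeR adjusted p of 0.773. That value was -0.34 without IO+DHEA library 2 and -0.42 without etomoxir library 2. Changes of several-fold in either direction lie inside these intervals. Their spread is shared over all 3 groups, so the IO+DHEA pair also enters the interval of etomoxir against control. With control and etomoxir fitted alone, that log2 fold change was 0.05 ± 0.61 (SE), with a 95% interval of -1.37 to 1.47.

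CDX2 was nearly level over the control and etomoxir libraries and lower in both IO+DHEA libraries. Its level was 11.4 and 11.6 CPM in the control libraries, 11.1, 12.1 and 10.9 CPM in the etomoxir libraries, and 5.85 and 2.88 CPM in the IO+DHEA libraries. The 5 control and etomoxir libraries lay within 1.11-fold of each other, and the IO+DHEA libraries lay below all of them but 2.03-fold apart. CDX2 rested on fewer counts than the pluripotency genes, 967 to 1449 per library in control and etomoxir and 446 and 331 in IO+DHEA. The exact 95% Poisson intervals of the IO+DHEA libraries were 5.32 to 6.41 CPM and 2.58 to 3.21 CPM. They did not reach those of the other 5 libraries, of which the lowest bound was 10.2 CPM. These intervals cover counting error only, since no molecular identifiers separate reads from amplified copies.

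The CDX2 difference did not pass edgeR's threshold in any comparison. Group means were 11.5 ± 0.106 CPM (SD, n = 2) in control, 11.4 ± 0.656 CPM (SD, n = 3) in etomoxir and 4.37 ± 2.09 CPM (SD, n = 2) in IO+DHEA. For IO+DHEA against control the log2 fold change was -1.40 ± 0.41 (SE), with a 95% interval of -2.34 to -0.45, an unadjusted p of 0.00955 and an edgeR adjusted p of 0.0811. For etomoxir against IO+DHEA it was 1.38 ± 0.38 (SE), with an interval of 0.49 to 2.27, an unadjusted p of 0.00743 and an edgeR adjusted p of 0.0574. For etomoxir against control it was -0.02 ± 0.36 (SE), with an interval of -0.86 to 0.83 and an edgeR adjusted p of 1. With control and etomoxir fitted alone, without the IO+DHEA pair, it was -0.01 ± 0.22 (SE), with an interval of -0.53 to 0.51. The call turned with the method: DESeq2 gave adjusted p-values of 0.0126 (IO+DHEA against control) and 0.00595 (etomoxir against IO+DHEA). Without IO+DHEA library 1 the edgeR adjusted p was 0.0152 and 0.0140, with log2 fold changes of -1.96 and 1.95. Without IO+DHEA library 2 it was 0.0712 and 0.0576 by edgeR, with log2 fold changes of -0.98 and 0.96. Etomoxir against IO+DHEA also passed with no filter (0.0478) and with library totals in place of TMM (0.0307).

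**Figure D2:**
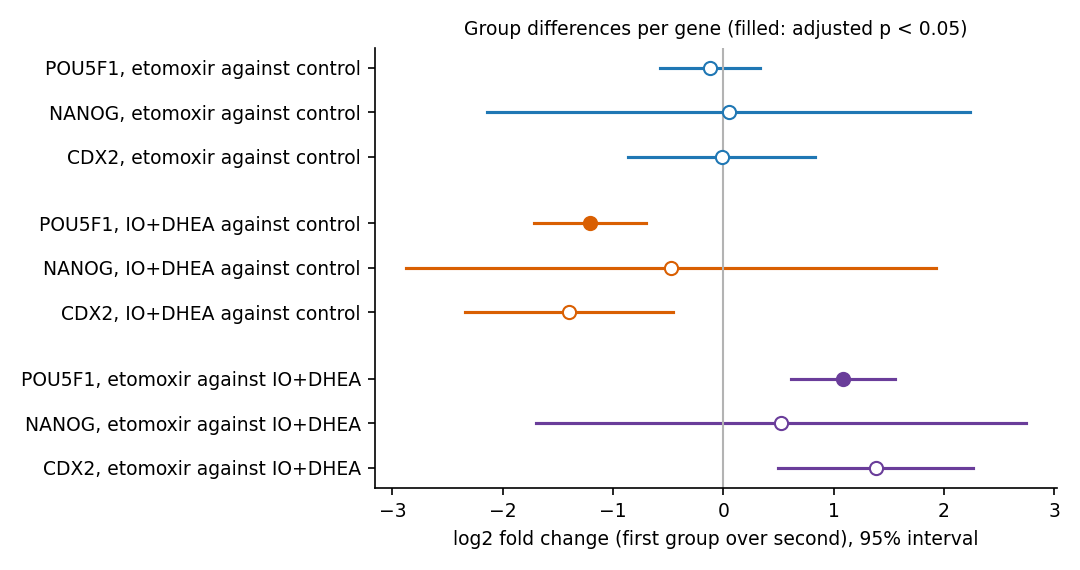
Log2 fold change of each gene in each comparison (horizontal axis, first group over second) with its 95% interval from the edgeR fit of all 7 libraries; filled points passed an adjusted p under 0.05. POU5F1 passed in both comparisons with IO+DHEA (-1.21 and 1.08), CDX2 had fold changes of like size (-1.40 and 1.38) with wider intervals and did not pass, and the NANOG intervals cross 0 throughout.

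Lower levels in both IO+DHEA libraries than in all 5 others were common in the whole table. POU5F1 and CDX2, 2 of the 3 genes, had this order, and so did 20.7% of all genes tested, while 15.1% had the opposite order. Non-overlapping libraries of IO+DHEA and control were found for 49.6% of the genes, those of etomoxir and IO+DHEA for 44.4%, and those of etomoxir and control for 25.3%, where 0 of the 3 genes were without overlap. In IO+DHEA against control, 18.2% of all genes tested had a lower log2 fold change than POU5F1 and 15.5% a lower one than CDX2. The median log2 fold change of the 3 genes was -1.21, which is the value of POU5F1 itself, against -0.01 for all genes tested. NANOG was at -0.47. In etomoxir against control these medians were -0.02 (the CDX2 value) and 0.02, and in etomoxir against IO+DHEA 1.08 (the POU5F1 value) and 0.08.

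The size of the POU5F1 and CDX2 differences shifted with the scaling of the libraries, and their direction in the comparisons with IO+DHEA did not. Upper quartile factors shifted the median over all genes to a log2 fold change of 0.19 in IO+DHEA against control and to -0.14 in etomoxir against IO+DHEA. Relative to the median of all genes, POU5F1 was at -1.20 with both TMM and upper quartile factors in IO+DHEA against control, and CDX2 at -1.39 and -1.38. This measure depended on IO+DHEA library 2: without it CDX2 was at -0.65 relative to the median of all genes, and in etomoxir against IO+DHEA POU5F1 went from 0.999 to 0.66 and CDX2 from 1.30 to 0.50. The closeness of POU5F1 in the IO+DHEA libraries was a matter of scaling. It was 1.05-fold on TMM-scaled totals and 1.36-fold on plain library totals, at 185 and 251 CPM. On plain totals CDX2 was at 4.91 and 3.14 CPM in the IO+DHEA libraries and at 10.95 to 12.5 CPM in the other groups.

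**Figure D3:**
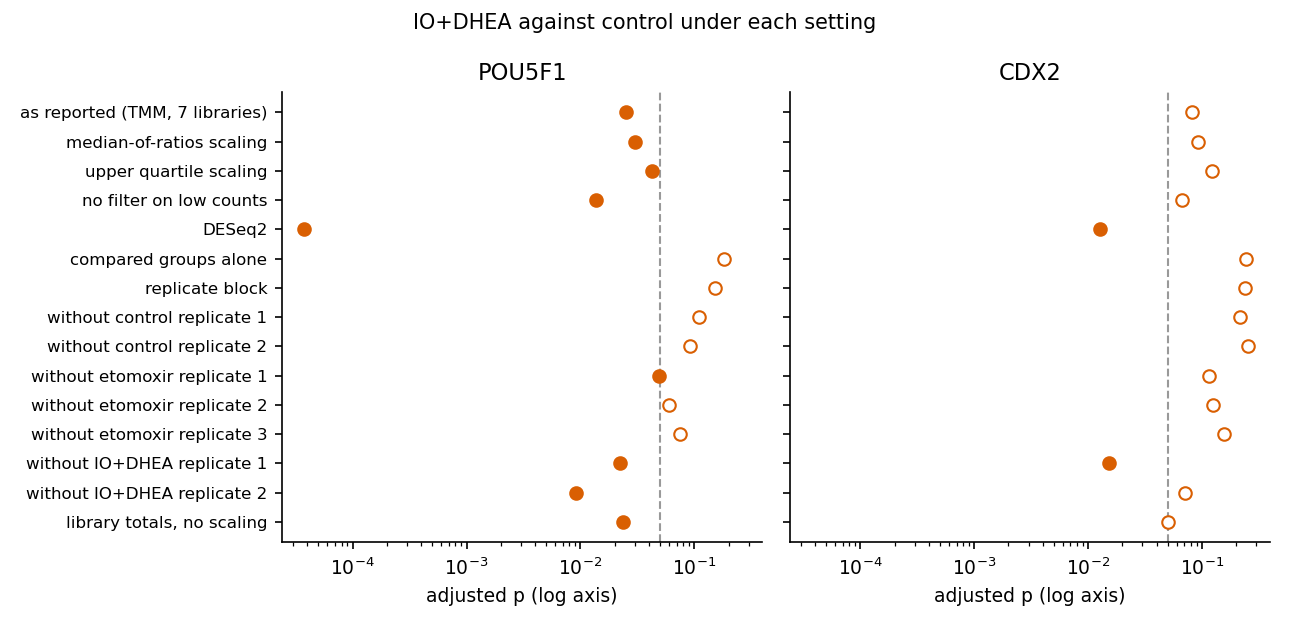
Adjusted p (log axis, dashed line at 0.05) of POU5F1 and CDX2 in IO+DHEA against control as reported and under each alternative; filled points are under 0.05. POU5F1 passes as reported (0.0253) and misses it, among others, in the fit of the compared groups alone (0.183) and without either control library (0.109 and 0.0908), whereas CDX2 misses it as reported (0.0811) and passes with DESeq2 (0.0126) and without IO+DHEA library 1 (0.0152).

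The balance of inner cell mass to trophectoderm transcripts was taken within each library, as the mean log2 CPM of POU5F1 and NANOG minus that of CDX2. As POU5F1 transcript persists in bovine trophectoderm and CDX2 alone stands for that lineage, the balance compares transcripts and not cell numbers. It does not depend on the scaling of the library apart from the prior count. Its absolute size depends on gene length and is not interpreted, and only its differences between libraries are. The balance was 4.61 and 4.73 in the control libraries, 4.13, 5.12 and 4.24 in the etomoxir libraries, and 5.24 and 4.62 in the IO+DHEA libraries. All 3 groups overlapped. The mean was 4.67 ± 0.09 in control (SD, n = 2), 4.50 ± 0.54 in etomoxir (SD, n = 3) and 4.93 ± 0.43 in IO+DHEA (SD, n = 2). IO+DHEA was thus 0.26 above control on the log2 scale, less than the SD within IO+DHEA, and etomoxir was 0.17 below control. The largest of the 3 differences was that of etomoxir against IO+DHEA, at -0.43, which was negative in all 9 alternatives run, although the libraries overlapped. As a score over chosen genes it was given no p.

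POU5F1 over CDX2 was the steadier of the component ratios. The log2 difference was 5.68 and 5.29 in the control libraries, 5.23, 5.38 and 5.54 in the etomoxir libraries, and 5.23 and 6.31 in the IO+DHEA libraries. IO+DHEA library 1 was thus at the lower edge of the control and etomoxir libraries, with both genes lower by a like factor, and IO+DHEA library 2 lay above every other library. In that library CDX2 was lower, relative to control and etomoxir, by a larger factor than POU5F1.

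NANOG over CDX2 ranged from 2.94 to 5.25 on the log2 scale, and both ends were IO+DHEA libraries. It was 3.53 and 4.17 in the control libraries, 3.03, 4.86 and 2.95 in the etomoxir libraries, and 5.25 and 2.94 in IO+DHEA libraries 1 and 2. Which IO+DHEA library stood out therefore depended on the choice of pluripotency gene, with library 1 high by NANOG and library 2 high by POU5F1. The other IO+DHEA library lay close to an etomoxir library each time. By NANOG these were IO+DHEA library 2 (2.94) and etomoxir library 3 (2.95), and by POU5F1 IO+DHEA library 1 (5.228) and etomoxir library 1 (5.232). The log2 difference of NANOG and POU5F1, both genes of the pluripotent cells, was 0.02 in library 1 of IO+DHEA and -3.37 in library 2, and lay between -2.59 and -0.52 in the control and etomoxir libraries.

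**Figure D4:**
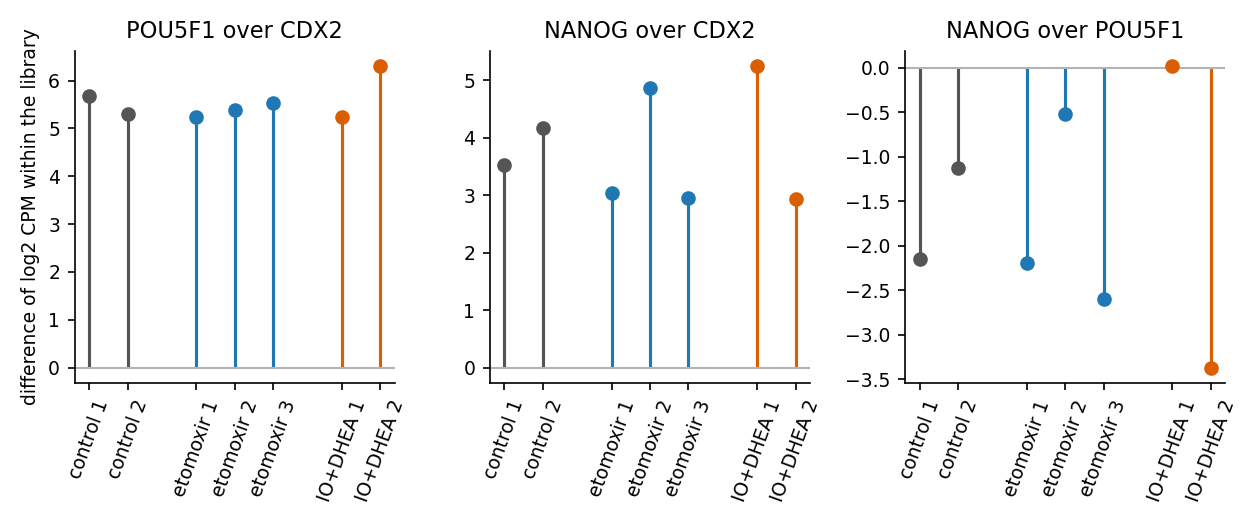
Difference of log2 CPM between pairs of genes within each of the 7 libraries (vertical axes, drawn from 0, on a different scale for each pair), coloured by group. POU5F1 over CDX2 is 5.23 to 5.68 in control and etomoxir and 6.31 in IO+DHEA library 2, and the IO+DHEA libraries take both ends of NANOG over CDX2 (5.25 and 2.94) and of NANOG over POU5F1 (0.02 and -3.37). The lower end of NANOG over CDX2 is close to etomoxir library 3 (2.95).

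The spread between libraries of a group also set the 3 genes apart. The SD of log2 CPM within groups, pooled over the 3 groups with 4 degrees of freedom, was 0.18 for POU5F1, 1.45 for NANOG and 0.36 for CDX2, and its median over 7610 genes averaging at least 5 CPM was 0.33. A smaller SD was found for 14.7% of these genes than for POU5F1, 97.8% than for NANOG and 57.6% than for CDX2. Over the control and etomoxir libraries alone the SD was 0.20 for POU5F1, 0.99 for NANOG and 0.07 for CDX2. There the median over genes was 0.23, and 40.7% of genes had a smaller SD than POU5F1. The low rank of POU5F1 thus came with the TMM-scaled IO+DHEA pair, with which the median was higher and its own SD changed little. NANOG thus had a wide spread with and without the IO+DHEA libraries. For CDX2, 3.27% of genes had a smaller SD in those 5 libraries, and its pooled value came from the IO+DHEA pair.

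**Figure D5:**
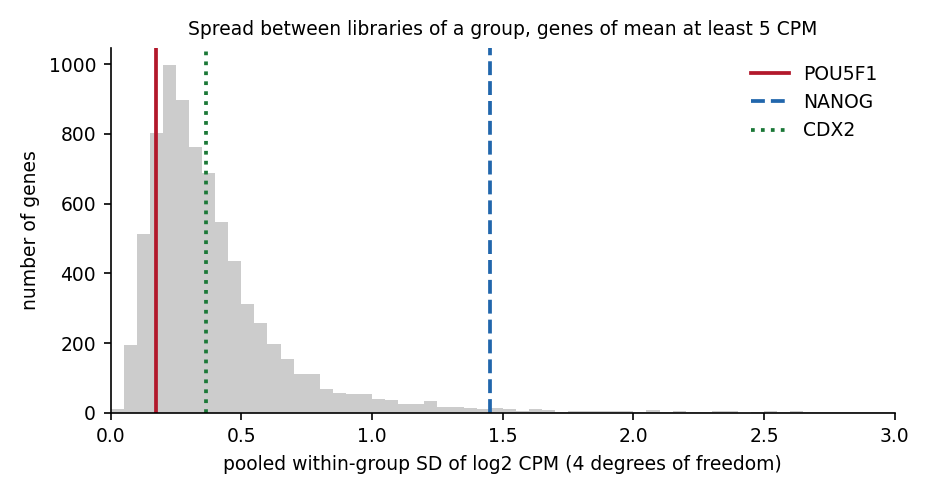
Histogram of the within-group SD of log2 CPM (horizontal axis) over 7610 genes averaging at least 5 CPM, with lines at POU5F1 (0.18), CDX2 (0.36) and NANOG (1.45); 34 genes above 3 are outside the axis. NANOG lies in the tail, POU5F1 below the median of 0.33 and CDX2 just above it.

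More genes had a pattern over the libraries like that of POU5F1 or CDX2 than like that of NANOG. Likeness was measured as Pearson's r of log2 CPM over the 7 libraries, against 7609 other genes averaging at least 5 CPM. It is given as a description, since all genes of a library share its scaling and the IO+DHEA libraries stand apart. An r of at least 0.95 was found for 191 genes (2.51%) with POU5F1, 276 (3.63%) with CDX2 and 8 (0.105%) with NANOG. The gene most like POU5F1 was ENSBTAG00000004815 (r = 0.996), at 50.9 and 33.8 CPM in control, 32.5 to 42.3 CPM in etomoxir and 8.39 and 10.2 CPM in IO+DHEA. The gene most like CDX2 was ENSBTAG00000011837 (r = 0.999), at 97.3 and 99.6 CPM in control, 86.5 to 99.5 CPM in etomoxir and 48.5 and 22.9 CPM in IO+DHEA. The gene most like NANOG was ENSBTAG00000008633 (r = 0.971), which moved over a narrower range, from 18.1 CPM in IO+DHEA library 2 to 44.3 CPM in etomoxir library 2. The names of these 3 genes were not matched.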

How the data were processed

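Gene-level RNA sequencing counts of 7 bovine blastocyst libraries were used, grouped by their treatment label. A SMARTer ultra-low input kit and Nextera XT were used, per the labels' protocols. The authors deposited raw counts per Ensembl gene ID. They name featureCounts 2.0.1, STAR 2.7.9a, cutadapt 1.18 and build ARS-UCD1.2, per the submitters' processing notes. Annotation release, strandedness and the handling of multi-mapping reads: not given in the sources used here. POU5F1 and NANOG have processed copies in several mammals, so counts shared with such copies remain uncertain. In RefSeq's annotation of ARS-UCD2.0, 0 genes overlapped POU5F1, NANOG or CDX2.

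Counts were analysed in R 4.3.3 with edgeR 4.0.16 (filterByExpr minimum count 10, minimum total 15; TMM, glmQLFit, glmQLFTest, two-sided). All 7 libraries entered 1 fit with 3 group terms, which shares 1 spread per gene, with 4 residual degrees of freedom. The groups were not equally spread. Over genes averaging at least 5 CPM, the median absolute log2 difference between libraries was 0.59 in IO+DHEA, 0.267 in control and 0.215 to 0.264 in etomoxir. Tests of IO+DHEA thus used a spread drawn in part from groups that varied less. Standard errors were obtained from each fold change and its F statistic, and 95% intervals from the moderated degrees of freedom (7.54). Log2 CPM used a prior count of 2. The fit was also run on simulated counts with known changes. The outcome of that run is not given here, and no result rests on it. Figures were drawn with matplotlib 3.10.9.

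DESeq2 1.42.0, upper quartile and median-of-ratios scaling, no filter, the compared groups alone, a replicate block and leaving out each library were the alternatives. Library totals without scaling factors were added after seeing the data. The genes, lists and the rule for named genes (the members, called or abundant lineage genes, and the genes most alike in pattern) were chosen with earlier results of these data known. The 7 lists of 104 lineage, Hippo pathway and other cell type genes were not analysed here, since 0 of the 27607 IDs were matched to symbols. For the same reason 1 ID is given per member for likeness. Promoter and protein sequences were not used here.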

Additional observations from a re-analysis of the deposited data

How the results depend on the processing

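POU5F1 was lower in IO+DHEA than in control under all 14 alternatives and passed the threshold in 8, with edgeR or DESeq2 adjusted p from 3.73e-05 to 0.183. Its log2 fold change was -1.25 in the fit of the compared groups alone, where it missed the threshold, and -1.44 to -1.06 with 1 library left out. Against etomoxir it was lower in all 14 and passed in 10, with a log2 fold change of 1.03 to 1.19 for etomoxir against IO+DHEA with 1 library left out. CDX2 was lower in IO+DHEA under the same 14 alternatives of both comparisons. It passed against control in 2, with a value of -1.33 by DESeq2 and a range of -1.96 to -0.98 with 1 library left out. Etomoxir against IO+DHEA passed in 4, at 1.43 with no filter, 1.30 by DESeq2, 1.55 with library totals and 0.96 to 1.95 with 1 library left out. Where a group was left with 1 library, it was assumed to vary like the others.

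Near 0, signs turned. For etomoxir against control, leaving out 1 library gave -0.32 to 0.055 for POU5F1, -0.98 to 0.39 for NANOG and -0.087 to 0.013 for CDX2, and library totals gave 0.046 for CDX2. For NANOG the range was -2.90 to 0.39 in IO+DHEA against control and -0.42 to 2.95 in etomoxir against IO+DHEA. The cause was not tested. The balance difference moved from its reported value by less than the pooled SD within groups (0.44) under each alternative run, and leaving out 1 library gave -0.48 to 0.02, -0.04 to 0.57 and -0.74 to -0.12 in the 3 comparisons. The alternatives with SOX2 could not be run.

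With the replicate block, from the numbers in the titles, log2 fold changes of POU5F1 were -1.21 (edgeR adjusted p = 0.152) in IO+DHEA against control and 1.04 (0.169) in etomoxir against IO+DHEA, and that of CDX2 in etomoxir against control was 0.018. The block left 0 genes called in each comparison, with 217, 2603 and 2633 at an unadjusted p under 0.05. The r of deviations from the group mean over 7610 genes was -0.239 to 0.141 for same-numbered libraries and -0.247 to 0.247 for the others. In a group of 2 libraries these deviations mirror each other, so the r values cannot decide whether the numbers mark pairs. The labels do not give the origin of the replicates, and the reported fit has no block.

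Over all genes, etomoxir against control called 1, or 59 with DESeq2 and 0 to 1 with 1 library left out. IO+DHEA against control called 1050, or 2936 with DESeq2, 0 with the compared groups alone (2530 at an unadjusted p under 0.05) and 47 to 3707 with 1 library left out. Etomoxir against IO+DHEA called 1769, or 3507 with DESeq2, 932 with the compared groups alone and 35 to 4530 with 1 library left out.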
